A study of Mus musculus with 18 samples.

Results

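The glutathione S-transferase (GST) genes Gsta3, Gsta4, Gstm1, Gstm2, Gstm5, Gstp1, Gstt1, Gstt3, Gsto1 and Gstk1 were followed in the lungs of mice given a mixture of polycyclic aromatic hydrocarbons (PAHs). They were chosen by name, and every array probe whose RefSeq accession belonged to 1 of the 10 genes was taken, which gave 15 of the 55681 probes and 10 of the 20660 named genes. Male MutaTMMouse animals, about 12 weeks old and all carrying the same lacZ reporter transgene, received the 4PAH-Mix (benzo[a]pyrene, BaP, with benz[a]anthracene, benzo[b]fluoranthene and chrysene) in olive oil by daily oral gavage for 28 days. There were 5 vehicle mice given olive oil alone, 4 low-dose mice at 12.5, 5 medium-dose mice at 25 and 4 high-dose mice at 50 mg BaP equivalents/kg-bw/day. Lungs were taken 72 hours after the last dose, and RNA of random pieces of each lung was hybridized to 1 array. The tissue held markers of its main cell types above background on all 18 arrays, including all 6 measured alveolar type 2 genes and all 4 measured alveolar type 1 genes. All 6 measured endothelial genes were also above background on all 18 arrays.

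GSTs join glutathione, a small thiol peptide, to electrophilic compounds, which makes these less reactive and prepares them for export from the cell. PAHs are first oxidized by cytochrome P450 enzymes such as those encoded by Cyp1a1 and Cyp1b1, and the reactive epoxides that form, BaP diol epoxide among them, are substrates of alpha, mu and pi class GSTs. Transcription of several GST genes in rodents is known to respond to the factor NRF2 through antioxidant response elements, and some respond to the aryl hydrocarbon receptor (AHR) through xenobiotic response elements. In mouse lung, airway club and ciliated cells are known to be rich in these enzymes.

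The bases before the start of transcription are shown for 2 genes, because Gstm5 was the 1 gene of this set past an adjusted p of 0.05 at a dose and Gsta3 was the other member whose window held the antioxidant response element core. RefSeq start sites (GRCm38.p6) were listed for 9 of the 10 genes, and the 250 bases before each start were searched on both strands for GCGTG, the xenobiotic response element core, and TGACNNNGC, the antioxidant response element core. Capitals mark both motifs. The Gstm5 window lies at chr3:107895604-107895853, plus strand, and the Gsta3 window at chr1:21240335-21240584, plus strand.
Gstm5: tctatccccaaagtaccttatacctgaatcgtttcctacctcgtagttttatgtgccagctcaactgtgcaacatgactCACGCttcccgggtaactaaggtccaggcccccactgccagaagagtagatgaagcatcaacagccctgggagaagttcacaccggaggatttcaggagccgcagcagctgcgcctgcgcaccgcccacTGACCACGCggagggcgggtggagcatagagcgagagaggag
Gsta3: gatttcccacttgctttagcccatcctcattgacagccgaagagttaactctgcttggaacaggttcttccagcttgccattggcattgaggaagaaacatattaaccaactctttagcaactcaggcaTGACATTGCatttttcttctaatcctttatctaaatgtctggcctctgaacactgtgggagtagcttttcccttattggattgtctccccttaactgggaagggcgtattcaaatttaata
The Gstm5 window held GCGTG, read on the opposite strand as CACGC, from 171 to 167 and from 38 to 34 bases before the start. The second of these copies overlapped a match to TGACNNNGC, TGACCACGC, from 42 to 34 bases before the start. In Gsta3 the match TGACATTGC lay from 121 to 113 bases before the start, with no GCGTG in the window. Gstm1 and Gstp1 held GCGTG and no TGACNNNGC, and the windows of Gstm2, Gstt1, Gstt3, Gsto1 and Gstk1 held neither. GCGTG therefore stood in 3 of the 9 genes and TGACNNNGC in 2, against 28.2% and 10.2% of 32851 promoter windows of the same length. The 2 measures are not counted alike, since the first is by gene, and Gstm1 and Gstt3 had 2 windows each. These matches describe letters in a window and are not evidence of binding.

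All 15 probes were well above background in both channels on all 18 arrays and none was saturated. The dimmest of the 15 was the only probe of Gstm5, with 1 spot per array and a median Cy5 intensity of 678. A level here is the log2 ratio of lung RNA (Cy5) over a reference RNA pooled from 11 mouse cell lines (Cy3), so that it says how lung compared with those cell lines and is not a rank of GSTs within lung. In vehicle lung Gsta3, an alpha class enzyme, stood 36.7-fold above the reference (log2 ratio 5.20 ± 0.20, SD, n = 5). Gstk1, the mitochondrial and peroxisomal kappa class enzyme, stood 11.1-fold above it (3.47 ± 0.09, SD, n = 5), and the theta class gene Gstt1 6.33-fold (2.66 ± 0.06, SD, n = 5). The log2 ratios of the mu class genes were 2.08 ± 0.28 for Gstm2 and 1.85 ± 0.25 for Gstm1 (SD, n = 5). Those of Gstt3, of the theta class, were 1.61 ± 0.19 and those of Gsta4, the alpha class enzyme known for conjugating reactive aldehydes of lipid peroxidation, 0.81 ± 0.16 (SD, n = 5). Gsto1, an omega class enzyme with thioltransferase activity, was level with the reference (-0.02 ± 0.24, SD, n = 5). The pi class gene Gstp1 stood 1.21-fold below it (-0.28 ± 0.17, SD, n = 5) and Gstm5 2.76-fold below it (-1.47 ± 0.16, SD, n = 5).

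**Figure D1:**
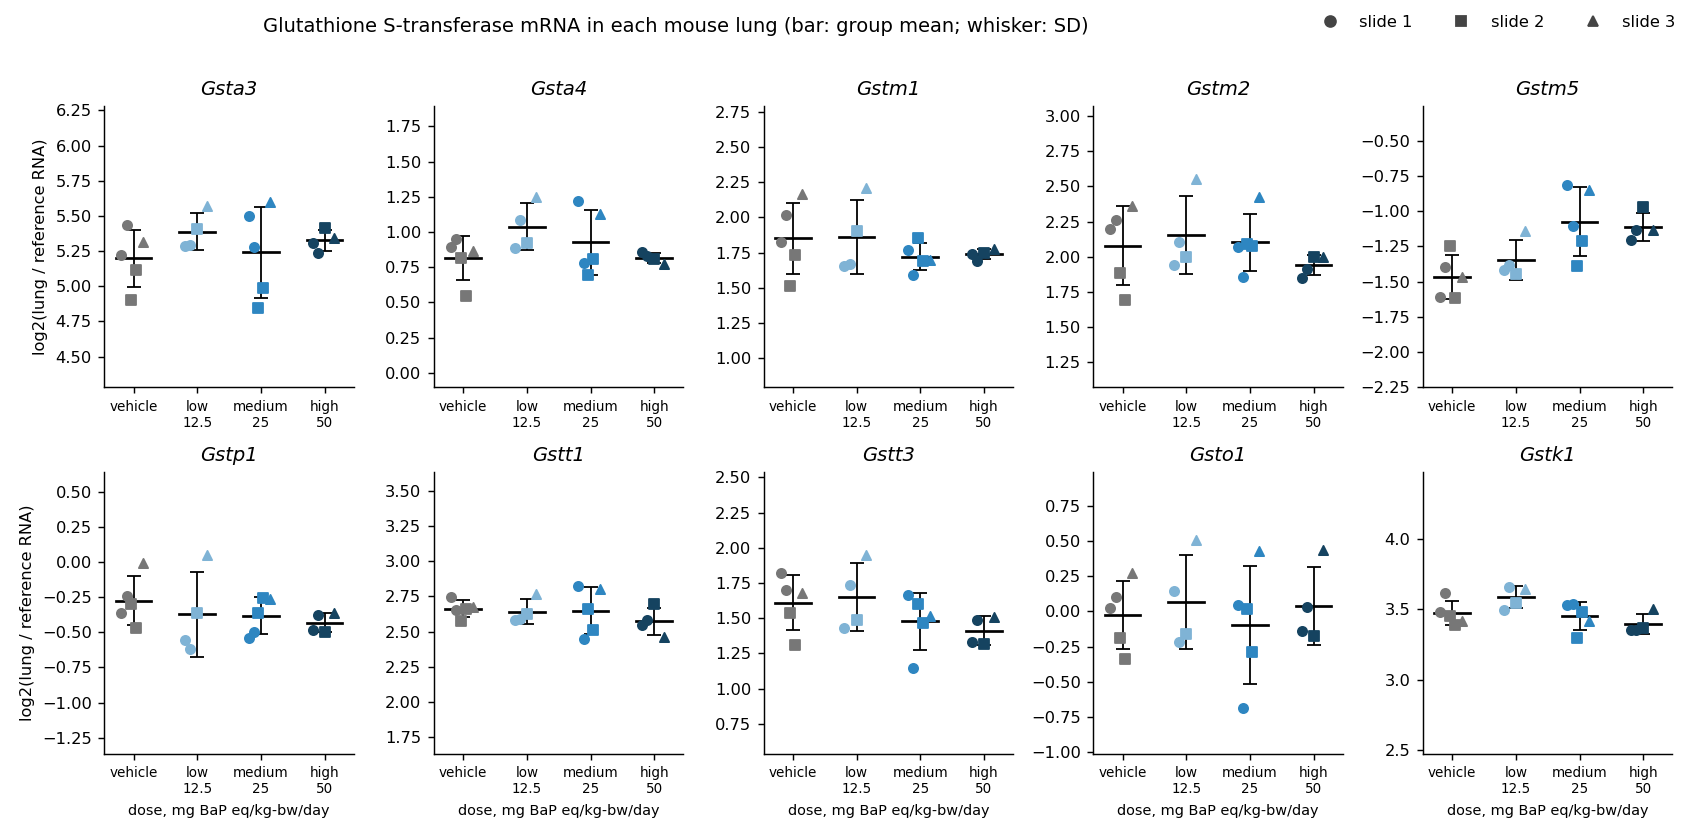
Log2 ratio of lung over reference RNA (y axis, each panel spanning 2 log2 units) for the 10 genes in each mouse by dose group (x axis), with the symbol giving the slide, a bar for the group mean and a whisker for the SD. All 4 high-dose points of Gstm5 lie above all 5 vehicle points, while in the other 9 genes the dose groups overlap the vehicle group.

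No GST gene reached the threshold of the study's methods, an adjusted p of 0.05 or less (limma, Benjamini-Hochberg over all probes) with a change of at least 1.5-fold, at any dose. Over all probes the shares called were 0.0898%, 0.726% and 1.2% from the lowest to the highest dose. With the adjusted p alone, 0 of 10 genes passed for low-dose, 1 for medium-dose and 0 for high-dose mice, against 0.167%, 3.54% and 4.18% of all probes. On the brightest probe of each gene, an unadjusted limma p under 0.05 was reached by 0 genes at the low dose. At each of the other doses it was reached by 1 gene, Gstm5. The shares of all probes were 8.01%, 15.3% and 15.7% in rising dose order. Values of the dose group and the vehicle group did not overlap for 0, 0 and 1 of the 10 genes at the 3 doses in rising order, against 2.81%, 4.36% and 8.11% of all probes. The median difference from vehicle over the 10 genes was 0.08, -0.02 and -0.08 on the log2 scale in the same dose order, where the median of all probes was 0.00.

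Gstm5 encodes a mu class enzyme. Its log2 ratios in the 5 vehicle mice were -1.61, -1.40, -1.25, -1.62 and -1.47. Those of the 4 low-dose mice were -1.42, -1.38, -1.44 and -1.14, within or just above the vehicle range. The 5 medium-dose mice gave -0.82, -1.11, -1.39, -1.21 and -0.85, and the 4 high-dose mice -1.21, -1.13, -0.97 and -1.13. Every high-dose lung lay above every vehicle lung, as did 4 of the 5 medium-dose lungs, mouse 13 being the exception.

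Relative to vehicle, Gstm5 was 1.31-fold higher at the medium dose (log2 0.39, SE 0.10, 95% interval 0.18 to 0.61, limma adjusted p = 0.0372). At the high dose it was 1.28-fold above vehicle, a difference that missed the threshold (log2 0.36, SE 0.11, 95% interval 0.13 to 0.59, adjusted p = 0.0756). Its low-dose difference was 0.12 (SE 0.11, adjusted p = 0.853), and the high-dose minus low-dose difference was 0.24 (SE 0.12, adjusted p = 0.755). Across the 4 groups taken as equal steps Gstm5 rose by 0.14 log2 units a step (SE 0.04, adjusted p = 0.0197), the only 1 of the 10 genes with such a trend, where 5.77% of all probes passed. Exact two-sided permutation tests of Gstm5 gave p = 0.0159 for both the medium-dose and the high-dose mice, and 0.238 after adjustment over the 30 gene and dose tests, with 0.00794 the smallest p these group sizes allow. The medium-dose result rested on single mice: with 1 mouse left out at a time, the adjusted p stayed at 0.05 or less in 11 of 18 cases and reached 0.112 without medium mouse 11. It was also lost without vehicle mouse 1, 2, 4 or 5 and without medium mouse 12 or 15. The trend was lost without vehicle mouse 1 (adjusted p = 0.0581) or 4 (0.0532), and its direction was kept in all 18 cases. Under other scalings the medium-dose adjusted p rose to 0.0817 (scaling between arrays) and 1.00 (median centring alone), and the trend was lost under both, while the sign of Gstm5 stayed positive under every alternative.

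Each of the 3 slides held arrays of all 4 groups, while the place of an array along the slide followed the dose group, so that this place and dose cannot be told apart. Within slides Gstm5 at the high dose exceeded vehicle by 0.33, 0.46 and 0.33 on slides 1, 2 and 3. At the medium dose the within-slide differences were 0.54, 0.13 and 0.62, and at the low dose 0.10, -0.01 and 0.32. With slide as a block the adjusted p was 0.0291 for medium-dose and 0.0749 for high-dose mice.

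In whole lung, fewer cells of a type and less RNA per cell cannot be told apart, and markers of several cell types moved with dose, each marker named here at an adjusted p of 0.05 or less. Of 5 fibroblast markers, Col1a1, Col1a2 and Dcn fell at the medium and high dose. The mean log2 ratio of the list ran from 0.11 to 0.36 in vehicle mice and -0.16 to 0.10 at the low dose. It ran from -0.44 to 0.04 at the medium and -0.57 to 0.02 at the high dose. The alveolar type 2 list (6 genes) ran from 5.13 to 5.30, 5.06 to 5.24, 4.66 to 5.15 and 4.75 to 5.23 in the same group order. Abca3 was lower at the medium and high dose and Slc34a2 at the high dose. The alveolar type 1 list (4 genes) ran from 3.93 to 4.22, 3.80 to 4.13, 3.79 to 3.97 and 3.70 to 3.89. No marker of it passed the adjusted p. The B cell list (4 genes) ran from 0.49 to 1.45, 1.31 to 1.74, 1.18 to 1.81 and 1.40 to 1.67. Cd79b and Ms4a1 were higher at the medium dose. Of 5 natural killer cell markers, Gzma and Prf1 fell at the high dose. The list ran from 1.11 to 2.04, 1.01 to 1.61, 1.07 to 1.74 and 0.61 to 1.15 in the same group order. Of 6 endothelial markers Pecam1 rose at the medium and high dose and Kdr fell at the high dose. No marker of these lists passed the adjusted p at the low dose. The measured fibroblast, alveolar type 2, B cell and endothelial markers were all above background on all 18 arrays, as were 3 of the 5 natural killer cell markers. Over the 18 lungs Gstm5 correlated with the mean of the alveolar type 2 list at r = -0.72, of the alveolar type 1 list at -0.71 and of the fibroblast list at -0.66. Once group means were taken off, these became -0.48, -0.43 and -0.20. The strongest of the 16 marker lists were then hepatocytes at 0.60, of which 1 of 5 genes was above background on all arrays, and endothelial cells at -0.58. The part of these markers in the Gstm5 difference was not tested.

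**Figure D2:**
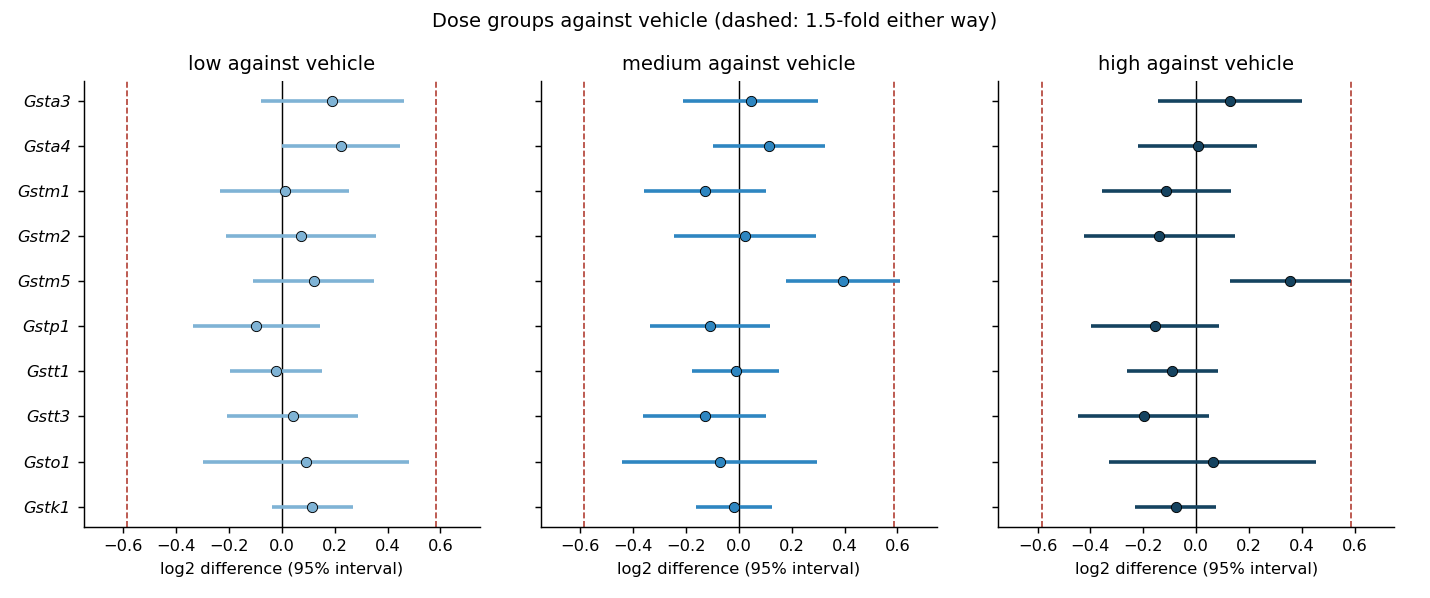
Log2 difference from vehicle (x axis) with its 95% interval for each of the 10 genes (y axis) at the low, medium and high dose, from the limma fit over all 4 groups; dashed lines mark a 1.5-fold change in either direction. The intervals shown are those of the brightest probe of each gene. The intervals of Gstm5 at the medium and high dose lie above 0, and all other intervals shown include 0.

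For the other 9 genes the differences from vehicle at the low dose lay between -0.10 and 0.22, and at the medium dose between -0.13 and 0.11. At the high dose they lay between -0.20 (Gstt3) and 0.13 (Gsta3) on the log2 scale, with intervals reaching from -0.45 to 0.45. These intervals are those of the brightest probe of each gene, span a 1.36-fold decrease to a 1.37-fold increase, and had a lowest adjusted p of 0.471. Those of further probes reached -0.47 for Gstm2 and 0.47 for Gsta3. The sign of the high-dose estimate changed under another scaling, channel or slide setting for 7 of the 9 genes, and that of Gsto1 changed when single mice were left out. Gsta3 stayed positive, at 0.09 to 0.44 over those settings and 0.05 to 0.19 with 1 mouse left out, and never passed the test. On the brightest probe, intervals lay within 1.5-fold either way for 10 of the 10 genes at the low dose and for 9 at the medium and high dose, Gstm5 being the exception at both. Gsta4 had the lowest unadjusted p of the low-dose differences: its log2 ratio was 0.22 higher (SE 0.11, adjusted p = 0.625), and low-dose and vehicle values overlapped.

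Within the alpha class, the low-dose and high-dose values of Gsta4 did not overlap, although neither group passed the test against vehicle. Gsta4 was measured by 10 spots on each array, and these lay close together, with an SD of 0.05 to 0.11, against an SD of 0.17 between mice within groups. Its 4 low-dose values, 0.89, 1.09, 0.92 and 1.25, all lay above its 4 high-dose values of 0.86, 0.83, 0.81 and 0.77. The high-dose minus low-dose difference was -0.22 (SE 0.11, adjusted p = 0.779), where 3.82% of all probes did not overlap between these groups. The exact permutation p was 0.0286, the smallest that 4 against 4 mice allow. No gene of the set was called between the high and low dose, nor at an adjusted p of 0.05 alone, where 0.0449% of all probes were called and 0.0611% passed the adjusted p. An unadjusted limma p under 0.05 was reached by 1 of the 10, Gstk1 (-0.19, SE 0.08, adjusted p = 0.653), against 6.71% of all probes. The difference of Gsta3 from vehicle was 0.19 (SE 0.13) at the low, 0.04 (SE 0.12) at the medium and 0.13 (SE 0.13) at the high dose.

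The probes of a gene gave similar but not equal answers. Over the 18 lungs the 2 Gsta3 probes correlated at r = 0.95, the 2 Gstm1 probes at 0.87 and the 2 Gstp1 probes at 0.72. The 2 brighter Gstm2 probes correlated at 0.96, and the third at 0.74 and 0.75 with them. At the medium dose the Gstm2 probes gave differences of 0.02, 0.01 and, for the third, 0.28 (adjusted p = 0.294). The Gstp1 probes differed from vehicle by -0.15 and 0.00 at the high dose. Mouse mu, pi and alpha class genes have close relatives, and cross-hybridization between them was not tested.

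Beyond dose, the genes differed in how much they varied between lungs. Within groups the SD was lowest for Gstk1 (0.09) and Gstt1 (0.11) and highest for Gsto1 (0.33). For these genes high-dose lungs were the most alike: the SD among them was below that of the vehicle lungs for 8 of 10 genes and below that of the medium-dose lungs for all 10. The median SD over the 10 genes was 0.18 in vehicle, 0.20 in low-dose, 0.20 in medium-dose and 0.07 in high-dose lungs. Gstm1 is an example, with values of 1.51 to 2.17 in vehicle lungs and 1.69 to 1.77 in high-dose lungs. These are descriptions of groups of 4 or 5 mice, and the difference in spread was not tested. The share of all probes with a smaller SD in high-dose lungs was not counted, so the pattern may not be particular to GSTs.

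Lungs that were high for 1 GST tended to be high for others. After group means were taken off, the correlation across the 18 lungs was above 0 for 44 of the 45 gene pairs, with a median r of 0.49 and a range from -0.13 (Gstt1 and Gstk1) to 0.78 (Gstm2 and Gsto1). Gstm1, Gstm2 and Gstp1 formed a trio, with r of 0.73 to 0.75. Gsta4 was nearest to Gstm5 (0.76) and Gsta3 (0.72). Gstk1 correlated with the others at -0.13 to 0.50. The values share an array, its hybridization and its reference channel, and with slide means taken off as well the median r was 0.34. Pairs of other genes were not counted in the same way, so this covariation may not be particular to GSTs.

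**Figure D3:**
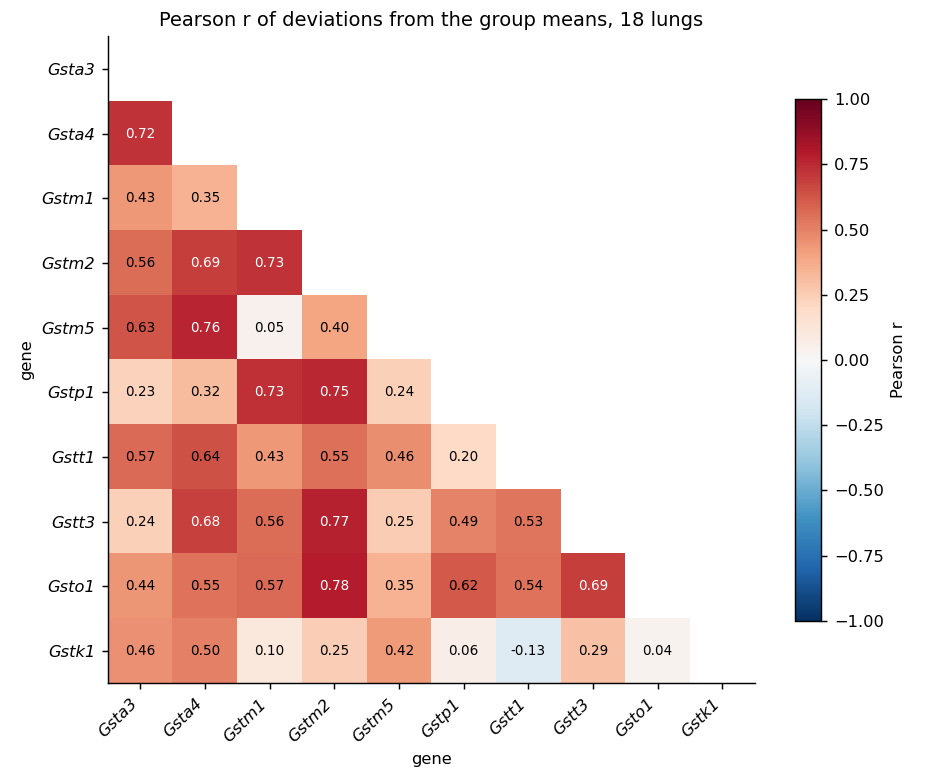
Pearson r between the log2 ratios of each pair of genes (x and y axes) over 18 lungs after the mean of each dose group was subtracted, with colour and number giving r. All pairs but 1 are positive, the exception being Gstk1 with Gstt1 at -0.13.

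Part of this shared variation went with the slide. The 4 lungs on slide 3 all lay above their group means for Gsto1 (mean deviation 0.42), Gstm2 (0.27), Gstp1 (0.22), Gsta3 (0.17) and Gstt3 (0.13). Gsto1 in those mice was 0.27 in the vehicle, 0.51 in the low-dose, 0.43 in the medium-dose and 0.44 in the high-dose animal. No other lung exceeded 0.14 for Gsto1. The mean of the club and airway secretory list moved the same way: it lay above the group mean in 4 of 4 lungs on slide 3 (deviation 0.82) and in 0 of 6 on slide 2 (-0.71). Gsto1 followed that mean at r = 0.83 within groups over 18 lungs. It also followed the means of adipocytes at 0.66, cardiomyocytes at 0.62, smooth muscle cells at 0.58 and ciliated cells at 0.57. Of 4 adipocyte markers 1 was above background on all arrays. The widest ranges in the club and airway secretory list were those of secretory protein and mucin genes: over the 18 lungs Bpifa1 ran from 0.46 to 6.50, Scgb3a1 from 1.74 to 5.43 and Muc5b from 1.09 to 4.75. Scgb1a1, which encodes the main club cell secretory protein, ran only from 7.17 to 8.10, and Cyp2f2, a club cell cytochrome P450, from 5.32 to 6.91. Within groups Gsto1 correlated with Scgb3a1 at 0.84, Bpifa1 at 0.82 and Muc5b at 0.81, against 0.33 for Scgb1a1, 0.19 for Cldn10 and 0.04 for Cyp2f2. With slide means also taken off, the first 3 values were 0.81, 0.69 and 0.67. Gsta4 followed the mean of the ciliated cell list at r = 0.82 within groups, and those of natural killer cells at 0.79 and hepatocytes at 0.73. Of the 7 club markers 6 had a probe and 5 were above background on all arrays, and of the 7 ciliated markers 6 had a probe and all 6 were above background on all arrays. The club and airway secretory mean spanned 4.14 to 5.50 in vehicle, 3.65 to 5.84 in low-dose, 3.64 to 5.54 in medium-dose and 3.66 to 5.82 in high-dose lungs, with no marker past an adjusted p of 0.05. The ciliated marker mean spanned 3.36 to 4.06, 3.67 to 4.06, 3.50 to 4.15 and 3.49 to 3.99, again with none past it. Slide 1 alone spanned a club and airway secretory mean of 3.64 to 5.84, and its mice 6 and 17, at 5.84 and 5.60, had Gsto1 log2 ratios of 0.14 and 0.03. The part of the slide and of these markers in the Gsto1 values was not tested.

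**Figure D4:**
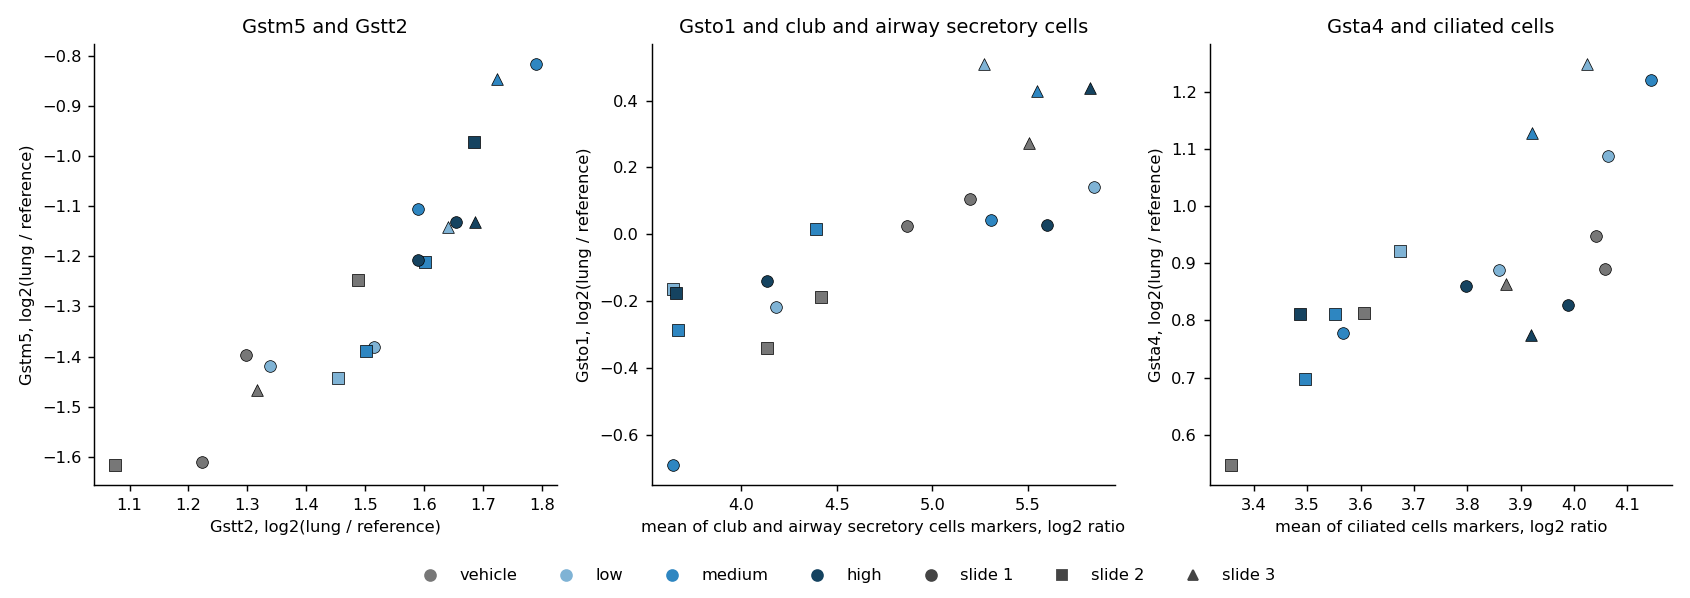
Each point is 1 lung, coloured by dose group and shaped by slide: Gstm5 against Gstt2 (left), Gsto1 against the mean of the club and airway secretory cell markers (middle) and Gsta4 against the mean of the ciliated cell markers (right), all as log2 ratios of lung over reference. The slide 3 lungs are the 4 highest for Gsto1, and all 5 vehicle lungs lie at -1.25 or lower for Gstm5.

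Among 13442 other genes above background in all lungs, the gene whose log2 ratio followed each GST most closely over the 18 lungs differed from member to member. For Gstm5 it was Tango2 (Pearson r = 0.92), followed by Gstt2 (0.92), a theta class GST that lies beside Gstt1 and Gstt3 in the genome. For Gsta4 it was Gpx2 (0.90), a glutathione peroxidase. For Gstm2 it was Cbr1 (0.88), a carbonyl reductase, and for Gstk1 Sult1a1 (0.78), a phenol sulfotransferase. For the others it was Gm10639 with Gsta3 (0.86), Ttll5 with Gstm1 (0.79), Ubap2l with Gstp1 (0.86), Arl3 with Gstt1 (0.76), Ldhb with Gstt3 (0.87) and Nphp4 with Gsto1 (0.86). Each is the highest of many correlations and is given as a description, and probes of near-identical relatives of the GSTs were not left out.

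Among the GSTs outside this set, Gstt2 differed with dose. Its log2 ratios were 1.22, 1.30, 1.49, 1.08 and 1.32 in vehicle mice, and 1.34, 1.51, 1.45 and 1.64 at the low dose. They averaged 1.64 ± 0.11 (SD, n = 5) at the medium dose, and were 1.59, 1.65, 1.68 and 1.69 at the high dose. No medium-dose or high-dose lung fell into the vehicle range. Gstt2 rose by 0.36 at the medium dose (SE 0.08, limma adjusted p = 0.0141) and by 0.37 at the high dose (SE 0.09, adjusted p = 0.0139), which is 1.28-fold and 1.30-fold. Both stayed at or below an adjusted p of 0.05 with each of the 18 mice left out in turn. Of the 14 other cytosolic GST and related genes listed, 13 had a probe and Gstt2 was the only 1 past an adjusted p of 0.05 at any dose. Its neighbour Gstt4 and Hpgds were not above background on any array. Gsta2, another alpha class gene, gave 0.53 at the high dose (adjusted p = 0.179) and Gstm7, of the mu cluster that holds Gstm5, gave 0.23 (adjusted p = 0.494).

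Over the 46 measured genes of 4 further glutathione lists, 4 passed an adjusted p of 0.05 in medium-dose mice and 4 in high-dose mice, 8.7% each. The shares of all probes were 3.54% and 4.18%. These bases are unlike, since list genes were taken by their brightest probe. Of all probes only 51.5% to 61.1% were well above background in Cy5 on an array. Of 6 microsomal GST and related genes listed, Ltc4s, which makes leukotriene C4 by joining glutathione to leukotriene A4, rose 1.58-fold at the medium dose (log2 0.66, SE 0.17, adjusted p = 0.0347) and 1.67-fold at the high dose (log2 0.74, SE 0.18, adjusted p = 0.0225). The medium-dose call of Ltc4s was lost without vehicle mouse 1, 2 or 3 or medium mouse 11, 12, 14 or 15 (adjusted p up to 0.107), and the high-dose call without vehicle mouse 1, 2 or 3 or high-dose mouse 20 (up to 0.0893). Of 14 genes of glutathione synthesis and recycling, Ggct, which breaks down gamma-glutamyl dipeptides, passed at the medium dose (0.42, SE 0.11, adjusted p = 0.0433). No gene of this list passed in the lower direction at any dose.

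Of 13 glutathione peroxidases and glutaredoxins, Gpx1 passed at the high dose (0.28, SE 0.08, adjusted p = 0.0474) and the mitochondrial glutaredoxin Glrx2 was lower at the medium dose (-0.53, SE 0.15, adjusted p = 0.0447). Another Glrx2 probe, also above background in all lungs, gave 0.07 at the medium dose. Of 13 measured genes of conjugate export and mercapturic acid processing, Nat8, the N-acetyltransferase of the last step, rose 1.70-fold at the high dose (log2 0.77, SE 0.16, adjusted p = 0.00823). Acy1, which removes acetyl groups from N-acetylated amino acids, passed at the medium dose (0.39, SE 0.10, adjusted p = 0.0241), and the conjugate exporter gene Abcc3 was lower at the high dose (-0.45, SE 0.12, adjusted p = 0.0357). The adjusted p of Ggct, Glrx2, Gpx1, Acy1 and Abcc3 rose above 0.05 once single mice were left out, reaching 0.12, 0.131, 0.158, 0.0676 and 0.142 at most.

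None of 14 antioxidant genes known as NRF2 targets passed an adjusted p of 0.05 at any dose, and their median high-dose difference was -0.04. Nqo1, the quinone reductase, gave 0.48 at the medium dose (adjusted p = 0.114) and 0.22 at the high dose (adjusted p = 0.618). Of 8 AHR targets, 2 passed the adjusted p at every dose, Cyp1b1 and Ahrr, and none of the others passed at any dose. The list median was 0.11, 0.05 and 0.23 from the lowest to the highest dose. In the same dose order Cyp1a1 gave -0.32, -0.44 and 1.07 (limma adjusted p = 0.878, 0.575 and 0.0773). Aldh3a1 gave -0.10, -0.30 and -0.28, also without passing. Cyp1b1 rose by 0.85, 1.15 and 1.58 from the lowest to the highest dose (adjusted p = 0.0295, 0.000147 and 3.55e-06), although its medium-dose difference did not pass under median centring (1.18, adjusted p = 0.192). Ahrr, which encodes the repressor of the receptor, rose by 0.69, 0.95 and 1.45 (adjusted p = 0.000208, 2.44e-07 and 7.45e-10), on a probe that was well above background in only 1 of 5 vehicle lungs. The size of the Ahrr difference depended on the processing: over the alternatives other than leaving out a mouse it ran from 0.48 (all probes of the gene averaged) to 2.78 (scanner log ratios) in medium-dose and from 0.81 to 3.55 in high-dose mice, with adjusted p of 0.00103 or less. In the same lungs, the differences of the 10 GST genes from vehicle were 0.39 or less in size.

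**Figure D5:**
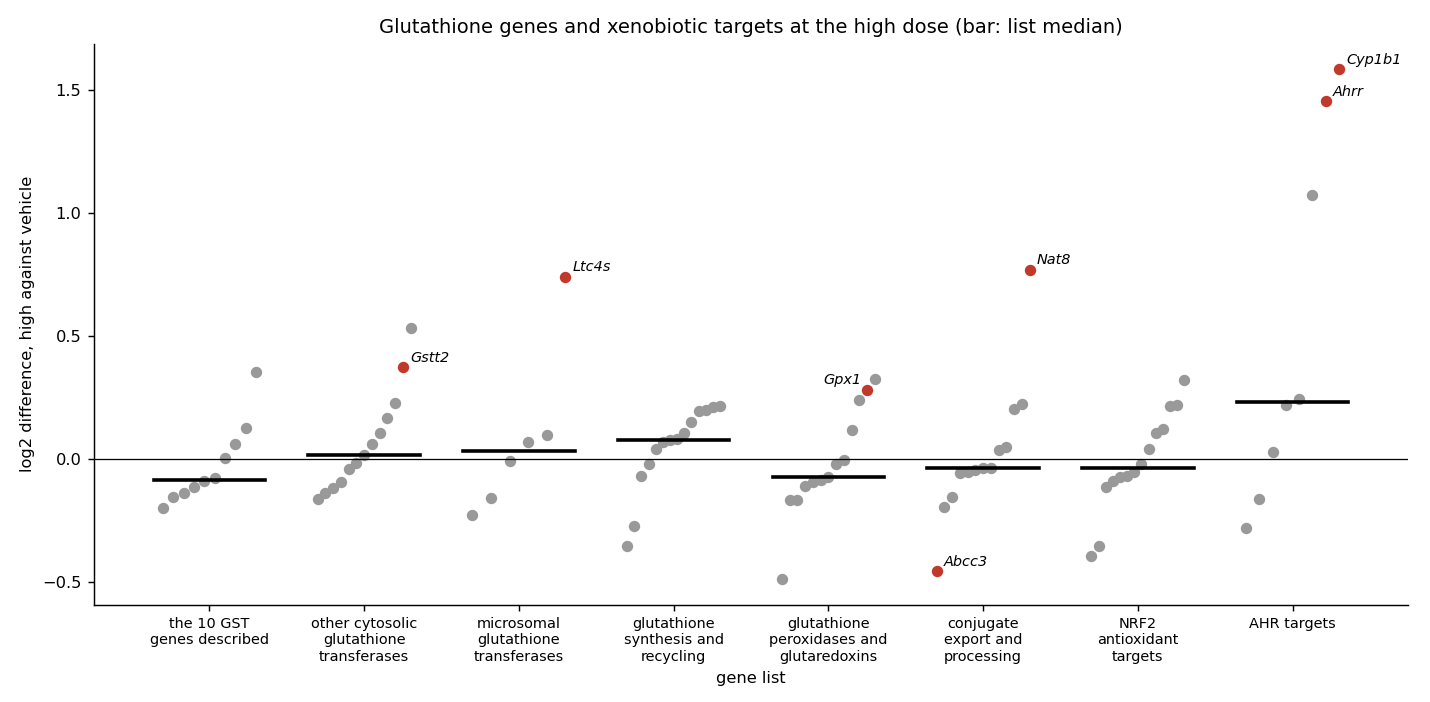
Log2 difference between the high-dose and vehicle groups (y axis) for each measured gene of 8 lists (x axis), with red points past an adjusted p of 0.05 and a bar at the median of each list. Cyp1b1 and Ahrr stand above 1.4, while the 10 GST genes lie between -0.20 and 0.36 and none is red.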

How the data were processed

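The authors deposited, for each of 18 two-colour arrays, median signal intensities of both channels from the scanner software (Feature Extraction 11.0.1.1), not normalized, together with its log10 ratios. The authors' deposited table of normalized log2 ratios was an alternative (r of 0.996 to 0.998 with the values used here). Following the study's methods, log2 ratios of median intensities without background subtraction were normalized by loess within arrays (R 4.3.3, limma 3.58.1). Outlier spots, 215 to 307 per array, and control spots were left out and spots of a probe were averaged. Median intensity ran from 107 to 135 in Cy5 and from 73 to 86 in Cy3. Precision is limited by the number of arrays.

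The 4 groups were fitted together in limma, which replaced the study's permutation F test, and p-values were adjusted over 55681 probes. The brightest probe stood for a gene. List genes were named where they passed an adjusted p of 0.05 at any dose, at most 4 per list. Of 171 list genes 164 had a probe. The members, lists and tests were chosen with earlier results of these data known. Alternatives were other background corrections and normalizations, the scanner log ratios, the authors' table, Cy5 alone, slide as a block, probe filters, other samples or adjustments in the fit, all probes of a gene, and each mouse left out. Probe sequences were not used here.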

Additional observations from a re-analysis of the deposited data

Results flagged for a closer look

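Dixon's test was applied to the 10 genes in each of the 4 groups, 40 tests in all, of which chance flags about 1 in 20. It marked 1 value: the Gstk1 log2 ratio of 3.51 in high-dose mouse 20, on slide 3, where the nearest high-dose value was 3.36. Without this mouse the high-dose minus vehicle difference of Gstk1 was -0.11, against -0.08 with it.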

How the results depend on the processing

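The counts of called GST genes kept their side under most alternatives. The count passing the dose trend fell from 1 to 0 under median centring and under scaling between arrays, and ran from 0 to 1 with 1 mouse left out. The count called at the medium dose rose from 0 to 1 when the fold limit was dropped. Counts at the low and high dose and between them stayed at 0 under every alternative.

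At the high dose, median centring turned the difference to 0.14 for Gstm1, 0.11 for Gstm2, 0.10 for Gstp1, 0.16 for Gstt1, 0.0485 for Gstt3 and 0.14 for Gstk1. Scaling between arrays gave 0.0664 for Gstt1 and 0.12 for Gstk1, Cy5 alone gave 0.0109 for Gstk1, and slide as a block gave -0.0226 for Gsta4. With 1 mouse left out, the high-dose difference ran from -0.0608 to 0.0394 for Gsta4 and from -0.0703 to 0.14 for Gsto1. For Gstm5 the adjusted p ran from 0.0122 (Cy5 alone) to 1.00 (median centring) for medium-dose mice and from 0.0179 to 0.776 for high-dose mice over the alternatives other than leaving out a mouse, with a positive difference throughout. With only the groups compared in the fit it was 0.0846 for the medium dose and 0.0424 for the high one. Under median centring Gstt2 also missed the threshold at the high dose (0.53, adjusted p = 0.714), as did Ltc4s (0.88, 0.632) and Nat8 (0.76, 0.43), and with the scanner's log ratios Ltc4s (0.0732) and Nat8 (0.0997) did so. Cyp1b1 missed it at the medium dose under median centring (1.18, 0.192). The cause was not tested. Aquantile scaling leaves log ratios as they are.

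No paired analysis was possible because the groups share no mouse numbers. A p above the threshold does not show that a gene was unaffected.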
